A study of Mus musculus with 12 samples.

Results

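The 10 genes described here are markers of stromal fibroblasts, the cells that build and maintain the connective tissue of the colon wall: Pdgfra, Pdpn, Cd34, Thy1, Grem1, Dcn, Lum, Fn1, Postn and Fap. They were taken by gene symbol out of 53801 genes in the count table. All 10 have a row among the 32689 genes of the normalized colon table and 8 among the 25514 genes of the normalized blood table, Pdpn and Grem1 being absent from the latter. The libraries are total RNA-seq of colon and whole blood from male wild-type C57BL/6 mice of 8 weeks. In the study, UC (ulcerative colitis) mice drank 1.5% dextran sulfate sodium (DSS), a polysaccharide that injures the colon lining, for 7 days. Control mice drank water free of DSS, and all were killed on day 8. The labels give mice 1, 2 and 4 as UC and mice 7, 8 and 9 as control, which S100a8 did not bear out (below). Each mouse gave a colon and a blood library, so the 12 libraries form 4 groups of 3 (UC colon, control colon, UC blood and control blood). The colon libraries come from homogenised tissue of every cell type, in which fewer fibroblasts and less RNA per fibroblast cannot be told apart.

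Fibroblasts of the gut lie beneath the epithelium, around the crypts, between the muscle layers and along vessels. They secrete collagen and other matrix, and set the balance of bone morphogenetic protein (BMP) and Wnt signals that crypt cells read. In colitis they are known to take part in matrix repair and in signalling to immune cells, and the genes studied here mark different subsets: Pdgfra is highest in fibroblasts directly under the epithelium, while Cd34 and Grem1 mark those deeper along the crypt base and vessels. Several of them are also made by other cells, such as endothelium, smooth muscle or T cells.

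Colon libraries held 69181049 to 103662306 counts each, and blood libraries 80867247 to 142536804. The labels give the tissue in 2 fields that contradict each other, and the groups follow the tissue characteristic. The fibrillar collagen genes, which define fibroblasts, were counted accordingly: Col3a1 had 29556 to 140707 counts in the colon libraries and 54 to 346 in the blood, Col1a2 had 9520 to 32330 and 8 to 106, and Col1a1 had 4086 to 12423 and 3 to 96. The disease labels were not borne out by S100a8, a neutrophil alarmin gene. Its normalized counts (the authors' count divided by 1 factor per library) in the colon were 5370, 33.1 and 22.3 in mice 1, 2 and 4, labelled UC, and 1888, 75.6 and 13337 in mice 7, 8 and 9, labelled control. Mice 1, 7 and 9 therefore held the 3 highest values across the labels, and the same 3 mice were highest in the blood, where each had at least 37179 normalized counts and none of the others over 14299. All 6 listed neutrophil genes had these mice as their 3 highest in the colon. In both normalized tables the columns stood in the order of mice 1, 7, 9, 2, 4 and 8, from which no group was taken. The groups below are called by their labels only. Each member's colon fold change is given with and without the 4 mice 2, 4, 7 and 9, whose S100a8 level went against their label, and the gene lists are given both ways in a paragraph of their own.

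The promoters of Grem1, Pdpn and Pdgfra are printed because these genes had the same 3 highest colon libraries. So did 18.7% of genes with a mean of at least 100 normalized counts. That of Cd34, whose 3 highest libraries were the other 3, is printed with them. The sequences are RefSeq promoters (GRCm38.p6) from 250 bases before to 50 after the start of the gene, which were listed for 5 of the 10 members. They lie at chr2:113758599-113758898 on the minus strand for Grem1, at chr4:143299515-143299814 on the minus strand for Pdpn, at chr5:75152001-75152300 on the plus strand for Pdgfra and at chr1:194938571-194938870 on the plus strand for Cd34. Capitals mark matches on either strand to the TATA box TATAAA, the GC box GGGCGG and the CCAAT box CCAAT, motifs that did not overlap one another here.
Grem1: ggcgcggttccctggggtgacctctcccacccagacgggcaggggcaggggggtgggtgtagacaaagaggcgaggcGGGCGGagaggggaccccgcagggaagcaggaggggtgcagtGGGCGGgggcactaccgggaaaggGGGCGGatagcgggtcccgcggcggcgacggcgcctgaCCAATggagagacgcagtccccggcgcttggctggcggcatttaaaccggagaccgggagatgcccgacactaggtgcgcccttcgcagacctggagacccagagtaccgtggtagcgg
Pdpn: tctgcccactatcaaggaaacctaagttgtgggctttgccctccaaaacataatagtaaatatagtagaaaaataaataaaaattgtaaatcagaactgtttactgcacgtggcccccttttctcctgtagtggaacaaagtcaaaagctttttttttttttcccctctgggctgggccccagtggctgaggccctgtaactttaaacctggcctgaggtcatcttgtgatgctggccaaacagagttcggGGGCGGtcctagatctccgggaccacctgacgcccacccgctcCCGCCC
Pdgfra: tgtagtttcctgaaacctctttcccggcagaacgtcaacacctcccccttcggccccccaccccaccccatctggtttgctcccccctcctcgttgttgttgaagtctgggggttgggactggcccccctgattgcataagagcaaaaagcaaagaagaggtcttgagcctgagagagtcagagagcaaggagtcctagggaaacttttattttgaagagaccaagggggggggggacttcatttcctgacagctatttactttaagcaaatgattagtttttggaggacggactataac
Cd34: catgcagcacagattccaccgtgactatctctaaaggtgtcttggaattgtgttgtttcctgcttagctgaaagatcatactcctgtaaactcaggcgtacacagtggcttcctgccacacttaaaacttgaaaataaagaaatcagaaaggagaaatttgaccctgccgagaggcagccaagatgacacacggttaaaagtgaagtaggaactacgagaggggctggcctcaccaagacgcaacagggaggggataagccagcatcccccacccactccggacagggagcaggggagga
The Grem1 promoter held 3 GC boxes at -173, -131 and -107 from the start site and a CCAAT box at -69, and its GC content was 70.7% with 28 CpG dinucleotides, against medians of 52.7% and 7 over all 32851 promoters of the table. The Pdpn promoter held 2 GC boxes just after the start, at positions 2 and 45, the second on the opposite strand, and its GC content was 48.7%. No match to these letters was found in the windows of Pdgfra (GC content 51.0%) and Cd34. Of the 2 promoter entries of Postn, that at chr3:54360857-54361156 held a TATA box at -26. A TATA box occurred in 13.6% of all promoters, a GC box in 35.7% and a CCAAT box in 37.4%. Of the 4 members with the same 3 highest libraries, Grem1 and Pdpn thus held GC boxes, Pdgfra did not, and Dcn had no promoter listed.

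The first question was whether the stromal genes differed between UC and control colon. None of the 10 was significantly differentially expressed (SDE: edgeR's quasi-likelihood test with adjusted p of at most 0.05 and absolute log2 fold change, log2FC, over 1), against 1 of 22238 genes tested, 0.00450%, which was Gm26712, named after its value was seen. By DESeq2 and limma-voom too, 0 of the 10 passed, and 0 had an unadjusted p under 0.05 by any of the 3 tools, against 313 genes (1.41%) in edgeR. The labelled groups overlapped for each of the 10, while they did not overlap for 5.66% of genes. As labelled, 4 members had a log2FC above 0 and 6 below, with a median of -0.23 beside -0.01 over all genes tested, and every adjusted p was 0.99995. The study, from 3 UC and 3 control mice, reported many SDE colon genes by DESeq2 at these thresholds. By the labels used here DESeq2 gave 6. The doubt about the labels set out above applies to this comparison, so it does not measure colitis against health. With 3 mice a labelled group and this spread, the interval of a difference (1.96 SE each way) still held a log2FC beyond 1 in absolute size for Pdgfra, Pdpn, Dcn and Grem1, with Fn1 at that limit. Such intervals are narrower than the test's own: that of Fn1 in the blood (0.08 to 2.83) left out 0 at an unadjusted p of 0.0725 by edgeR.

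**Figure D1:**
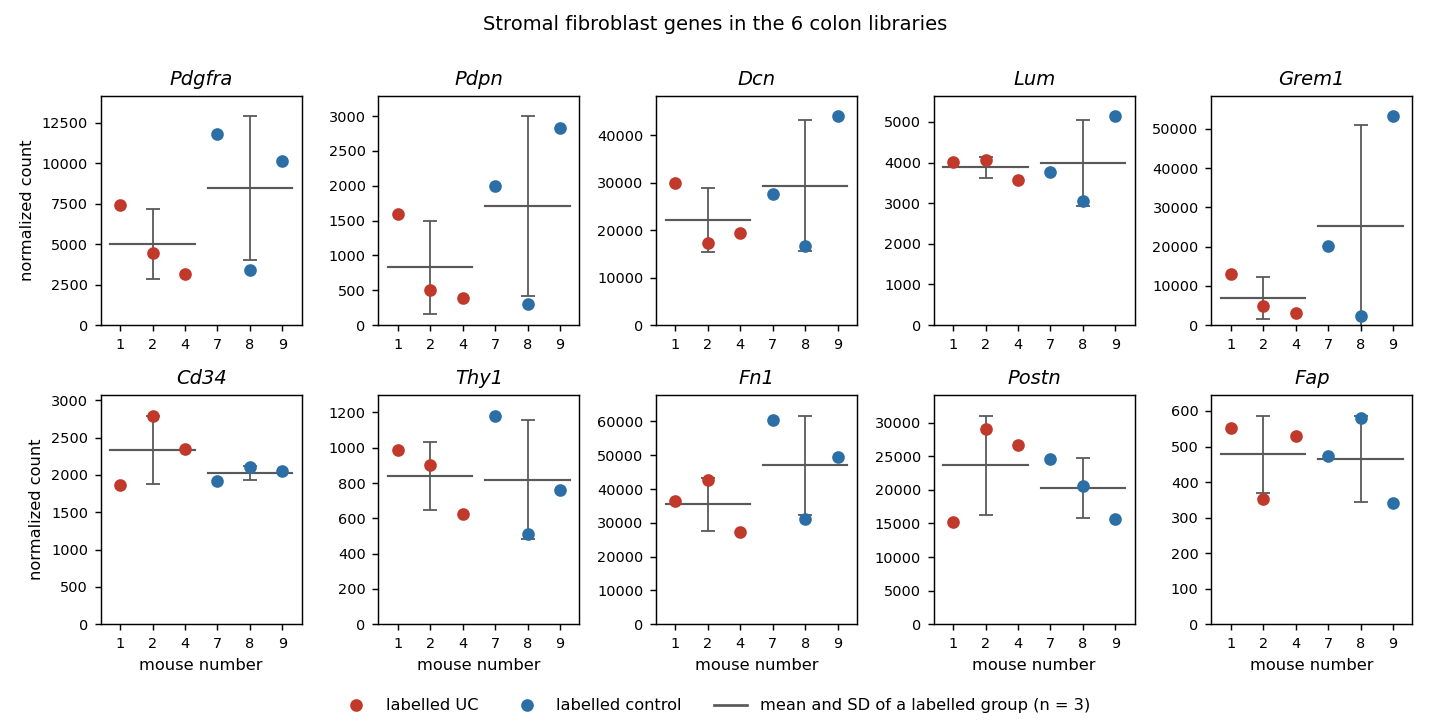
Normalized count (y axis, linear, from 0) of each of the 10 genes in the 6 colon libraries, by mouse number (x axis). Points are libraries coloured by disease label, the grey line and bar are the mean and SD of a labelled group (n = 3; the bar of Grem1 control is clipped at 0), and mice 1, 7 and 9 are the upper 3 for Pdgfra, Pdpn, Dcn and Grem1.

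What the 6 colon libraries did show was that some members shared their highest mice. The same 3 libraries as for S100a8 (mice 1, 7 and 9) were the highest for Pdgfra, Pdpn, Dcn and Grem1, 4 of the 10 members, which compares with 2970 of 15842 genes (18.7%) with a mean of at least 100 normalized counts. The reverse, with those mice as the lowest 3, was found for Cd34, 1 of 10, and for 16.2% of genes. The step from the upper 3 to the lower 3 libraries was a ratio of 3.13 for Pdpn, 2.75 for Grem1, 1.67 for Pdgfra and 1.42 for Dcn, beside a median of 1.32 over the genes with those 3 highest, and 1.02 for Cd34. The span from the lowest to the highest library was 22.8-fold for Grem1 and 9.54-fold for Pdpn, which 2.15% and 5.03% of genes reached, while the median member spanned 2.26-fold and the median gene 1.86-fold. Cd34 spanned least, 1.49-fold. These are descriptions of 6 libraries, with no test, since the mice were ordered by what was measured in them.

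The surface receptor Pdgfra (ENSMUSG00000029231, chromosome 5, 75152292 to 75198215, plus strand; coordinates from GENCODE release 21 on GRCm38) binds platelet-derived growth factors (PDGF). Its normalized counts were 7431, 4440 and 3168 in mice 1, 2 and 4, labelled UC, and 11804, 3427 and 10162 in mice 7, 8 and 9, labelled control. Mice 7 and 9 were highest and mouse 8 lay between the lower 2 mice labelled UC, so the groups overlapped. The mean was 5013 ± 2189 (SD, n = 3) in labelled UC and 8464 ± 4439 in labelled control, a log2FC of -0.77 (SE 0.512). Mouse 1 over mouse 8, the pair left when the 4 doubted mice are set aside, gave a log2 ratio of 1.12, the opposite direction. The other PDGF genes gave the same picture: 0 of 5 tested ligand and receptor genes were SDE, with a median log2FC of -0.36, from -0.47 for the ligand Pdgfc to 0.40 for the ligand Pdgfd. Among all colon genes, Tmem229b and Sirpa, an inhibitory receptor of myeloid cells, followed Pdgfra most closely over the 6 libraries, with a root mean square difference of 0.0965 and 0.107 on the log2 scale.

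Pdpn (ENSMUSG00000028583, chromosome 4, 143267431 to 143299564, minus strand) encodes podoplanin, a membrane mucin of fibroblasts and lymphatic endothelium that binds CLEC-2 on platelets. Normalized counts were 1589, 508 and 385 in mice 1, 2 and 4, against 1992, 296 and 2826 in mice 7, 8 and 9. Mice 1, 7 and 9 were thus at 1589 or more and the others at 508 or fewer, a split that runs across the labels. The means, 827 ± 663 in labelled UC and 1705 ± 1289 in labelled control (SD, n = 3), gave a log2FC of -1.05 (SE 0.865), which ran from -1.93 without mouse 1 to -0.50 without mouse 9, and mouse 1 over mouse 8 gave 2.42. Summed lymphatic endothelial markers (5 genes, among them Prox1 and Lyve1, none at 0) spanned 1.81-fold, with 10726, 11540 and 9652 in mice 1, 2 and 4 and 13487, 8978 and 16225 in mice 7, 8 and 9, and their part in the Pdpn level was not tested. Of the 5 genes whose proteins bind podoplanin, 0 were SDE, from -0.90 for Msn, the cytoskeletal linker moesin, to 0.26 for Clec1b, which encodes CLEC-2. The nearest genes to Pdpn were Cd300ld and Lrrc25, both known from myeloid cells, at a root mean square difference of 0.120 and 0.134.

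Cd34 (ENSMUSG00000016494, chromosome 1, 194938819 to 194961279, plus strand), a sialomucin of fibroblasts along vessels, of endothelium and of blood progenitors, was the steadiest member. Its normalized counts were 1871, 2790 and 2342 in mice 1, 2 and 4 and 1921, 2106 and 2059 in mice 7, 8 and 9. Mouse 2 was highest and mouse 1 lowest, both labelled UC, and the 3 labelled control lay between them. The log2FC was 0.19 (SE 0.192), and -0.17 for mouse 1 over mouse 8. Blood endothelial markers (9 genes, none at 0) summed to 10321, 11811 and 8563 in mice 1, 2 and 4 and to 14615, 9205 and 16958 in mice 7, 8 and 9. Their order was unlike that of Cd34, and the part of endothelium in the Cd34 level was not tested. Its relatives Podxl and Podxl2 had log2FCs of -0.18 and -0.28 and were not SDE. Cd34 shares 148 exonic bases with the antisense gene Gm16897, which was given 36 to 78 counts in the colon libraries, and reads of the pair cannot be told apart without strand. Exosc7 and Zfp146 were the genes most like it, the latter at 0.0545.

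Thy1 (ENSMUSG00000032011, chromosome 9, 44043384 to 44048579, plus strand) encodes CD90, a lipid-anchored surface glycoprotein of fibroblasts and, in mice, of T cells. Its colon values were 989, 903 and 622 normalized counts in mice 1, 2 and 4 and 1182, 514 and 759 in mice 7, 8 and 9. The highest and the lowest value both belonged to mice labelled control. The log2FC was 0.02 (SE 0.359) and turned negative when mouse 1, 2, 8 or 9 was left out, and mouse 1 over mouse 8 gave 0.94. T cell markers (9 genes, none at 0) summed to 1319, 512 and 686 in mice 1, 2 and 4 and to 2032, 424 and 2013 in mice 7, 8 and 9, so mouse 9 was near the top for T cell markers but below mice 7, 1 and 2 for Thy1. The T cell share of the Thy1 level was not tested. Coro2b and the fibrillar collagen gene Col24a1 were most like Thy1, at 0.0645 and 0.0697.

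Grem1 (ENSMUSG00000074934, chromosome 2, 113746164 to 113758646, minus strand) encodes gremlin 1, a secreted protein that binds BMPs and keeps them from their receptors near the crypt base. It was the most variable member, at 13136, 4775 and 3082 normalized counts in mice 1, 2 and 4, labelled UC, and at 20132, 2327 and 53149 in mice 7, 8 and 9, labelled control. Mouse 9 alone held more than the other 2 labelled control together, and mouse 8 was the lowest of all 6. The means of 6998 ± 5383 and 25203 ± 25788 (SD, n = 3) gave a log2FC of -1.85 (SE 1.05, unadjusted p = 0.127 and adjusted p = 0.99995 by edgeR's quasi-likelihood test). Without mouse 9 the log2FC was -0.72 and without mouse 1 it was -2.68, neither SDE, and mouse 1 over mouse 8 gave 2.50. The genes nearest to Grem1 were Ifitm6, an interferon-induced gene of myeloid cells, and Tnfaip2, a gene induced by tumor necrosis factor, at 0.230 and 0.283, a looser match than for any other member.

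The other genes of the BMP pathway were read beside Grem1. None of the 6 other antagonists was SDE, with a median log2FC of -0.09, from -1.04 for Chrd to 0.38 for Bambi, and over the colon libraries the 5 antagonist genes with a mean of at least 100 normalized counts spanned from 1.79-fold (Chrdl1) to 17.9-fold (Fst). BMP ligands and receptors (10 genes, 0 SDE) had a median log2FC of 0.01, from -0.97 for Bmp7 to 0.59 for Bmp3. The BMP target genes Id1, Id2, Id3, Id4, Smad6 and Smad7, also 0 SDE of 6, had log2FCs from -0.36 for Smad6 to 0.68 for Id4. Their summed normalized count was 10605, 22104 and 30858 in mice 1, 2 and 4 and 20065, 36956 and 13810 in mice 7, 8 and 9. Id1 alone made up 28.4% to 59.5% of these sums. Of the 6 targets, Id1 and Id4 had mice 1, 7 and 9 as their lowest 3, an order held by 16.2% of genes, while Id3 was lowest in mouse 2 (1738). Mouse 8, the lowest for Grem1, was the highest for Id1, Id3, Smad6 and Smad7, and all 6 targets were lower in mouse 1 than in mouse 8. The ligand gene Bmp2 also had mice 1, 7 and 9 lowest. It stood at 3080, 6429 and 15082 in mice 1, 2 and 4 and at 3516, 15129 and 4087 in mice 7, 8 and 9. Of the 9 ligand and receptor genes with a mean of at least 100, it was the only 1 so ordered, while Bmp7 and Bmpr2 had those mice highest. These orders were not tested, and mice 1, 7 and 9 were also high for immune cell markers.

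Dcn and Lum encode decorin and lumican, small leucine-rich proteoglycans that coat collagen fibrils. They are neighbours on the plus strand of chromosome 10, Dcn (ENSMUSG00000019929) at 97479609 to 97518143 and Lum (ENSMUSG00000036446) at 97565128 to 97572703, with 46984 bases between them. For Dcn the normalized counts were 29854, 17261 and 19427 in mice 1, 2 and 4, and 27595, 16581 and 43960 in mice 7, 8 and 9. Mice 9, 1 and 7 were highest, in that order, and the labelled groups overlapped. Lum had 4013, 4052 and 3570 in mice 1, 2 and 4 and 3766, 3045 and 5133 in mice 7, 8 and 9. Its highest and lowest libraries, mice 9 and 8, were those of Dcn, but mouse 2 was next to the top for Lum and next to the bottom for Dcn.

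The log2FC was -0.41 for Dcn (SE 0.386) and -0.05 for Lum (SE 0.213), and mouse 1 over mouse 8 gave 0.85 and 0.40. Without mouse 9, Dcn moved to -0.02 and Lum to 0.16. Of the 8 tested proteoglycans of the same family, 0 were SDE by edgeR, with a median log2FC of 0.62, from -0.75 for Bgn (biglycan) to 2.56 for Epyc (epiphycan). Epyc had the only unadjusted p under 0.05 in that list (0.0182, adjusted p = 0.99995). Relative to Dcn in the same library, Lum was the most constant member, with a log2 ratio between -3.10 and -2.09 and an SD of 0.38 over the 6 libraries. The genes most like Dcn were Hilpda, a lipid droplet gene induced by low oxygen, and Mxra8, a matrix remodelling-associated adhesion gene (0.0637 and 0.0849), and those most like Lum were Uggt1 and Elac2 (0.0421 and 0.0486).

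**Figure D2:**
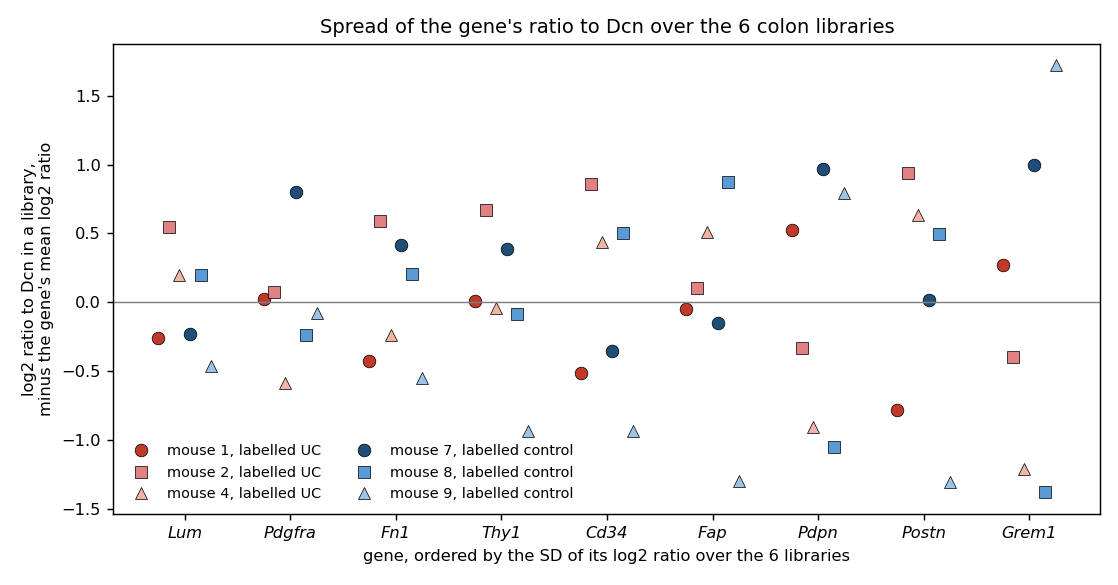
Log2 ratio of each gene's normalized count to that of Dcn in the same colon library, centred on the gene's mean over the 6 libraries (y axis), with genes ordered by the SD of that ratio (x axis). Points are libraries, and the spread is smallest for Lum (SD 0.38) and largest for Grem1 (SD 1.23), whose ratio to Dcn was -2.83 in mouse 8 and 0.27 in mouse 9.

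Measured against Dcn, the other members fell into different orders. The log2 ratio of Grem1 to Dcn was -1.18, -1.85 and -2.66 in mice 1, 2 and 4 and -0.45, -2.83 and 0.27 in mice 7, 8 and 9, so Grem1 outnumbered Dcn in mouse 9 only. For Pdpn it was -4.23, -5.09 and -5.66 in mice 1, 2 and 4 and -3.79, -5.81 and -3.96 in mice 7, 8 and 9. Postn went the other way, at -0.97, 0.75 and 0.45 in mice 1, 2 and 4 and -0.17, 0.31 and -1.49 in mice 7, 8 and 9. Pdgfra was steadier (SD 0.46), as were Fn1 (0.47) and Thy1 (0.54), followed by Cd34 (0.70) and Fap (0.74). These ratios carry the spread of Dcn too. The SD of the log2 level alone was smaller for Lum (0.25), Cd34 (0.21), Fap (0.33), Postn (0.40), Fn1 (0.43) and Thy1 (0.44). It was larger for Pdpn (1.38), Grem1 (1.75) and Pdgfra (0.81). The stromal genes therefore did not move by a common factor over the 6 libraries, whichever labels are used.

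Fn1 (ENSMUSG00000026193, chromosome 1, 71585520 to 71653200, minus strand) encodes fibronectin, the adhesive glycoprotein of new matrix that integrins bind. It had the highest mean normalized count of the members over the 6 colon libraries (41264), with 36481, 42758 and 27164 in mice 1, 2 and 4 and 60324, 31292 and 49562 in mice 7, 8 and 9. Mice 7 and 9 were highest, while mouse 8 fell among those labelled UC. The log2FC was -0.42 (SE 0.298), and 0.22 for mouse 1 over mouse 8. Integrins and other matrix receptors (10 genes, 0 SDE) had a median log2FC of -0.27, from -0.55 for Itgav to 0.67 for Itga8. Slc7a1 and Hspg2, which encodes the basement membrane proteoglycan perlecan, were most like Fn1 (0.0757 and 0.0851).

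Postn (ENSMUSG00000027750, chromosome 3, 54361109 to 54391037, plus strand) encodes periostin, a matricellular protein of fibroblasts and smooth muscle layers. Its normalized counts were 15219, 29106 and 26615 in mice 1, 2 and 4 and 24529, 20610 and 15657 in mice 7, 8 and 9. Mouse 2 was highest, mice 1 and 9 were lowest, and the groups overlapped. The log2FC was 0.21 (SE 0.304), and -0.44 for mouse 1 over mouse 8. The genes most like Postn were Csrp1, a LIM-domain gene strong in smooth muscle, and Prkcb, at 0.0780 and 0.0850. Smooth muscle markers (8 genes, none at 0) also had their highest sum in mouse 2, at 556245, and their lowest in mice 9 and 1, at 132826 and 239704, and the part of muscle in the Postn level was not tested.

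Among 17 other matricellular and elastic fibre genes 0 were SDE by edgeR, 13 had a log2FC below 0, and the median was -0.54. They ran from -1.62 for Tnc (tenascin C) to 0.54 for Mfap5, and 9 of the 17, among them Tnc, Spp1, Lox and Vcan, had mice 1, 7 and 9 as their highest 3. Stromal collagens (9 genes, 0 SDE) had a median of -0.49, from -0.70 for Col5a2 to 0.35 for Col14a1.

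Fap (ENSMUSG00000000392, chromosome 2, 62500943 to 62574075, minus strand) encodes fibroblast activation protein, a membrane serine protease of the prolyl oligopeptidase family. It was the least counted member, with 552, 353 and 529 normalized counts in mice 1, 2 and 4 and 474, 580 and 340 in mice 7, 8 and 9. Mouse 8 was highest and mouse 9 lowest, both labelled control, and Fap was the only member for which mouse 9 came last. The log2FC of 0.02 (SE 0.319) turned negative without mouse 1, 4 or 9, and mouse 1 over mouse 8 gave -0.07. Its 6 relatives held 0 SDE genes, from -0.34 for Dpp6 to 0.64 for Dpp4. Mmp15, a membrane matrix metalloproteinase, and the nuclear receptor gene Rxra were most like Fap, at 0.0532 and 0.0544.

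**Figure D3:**
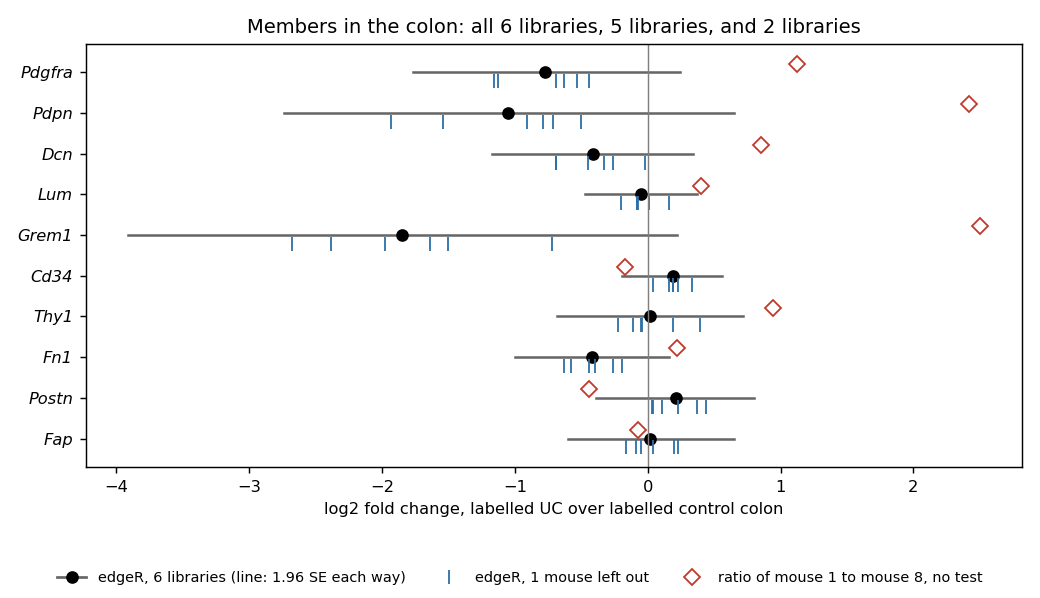
Log2 fold change of labelled UC over labelled control colon (x axis) for the 10 genes (y axis). Black points with lines are edgeR estimates from 6 libraries with 1.96 SE each way, ticks are the estimates with 1 mouse left out, and open diamonds are the log2 ratio of mouse 1 to mouse 8 with no test. The diamond lies on the other side of 0 from the black point for 9 of the 10 genes, Thy1 being the exception.

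Setting aside mice 2, 4, 7 and 9 thus turned the sign for 9 of the 10 members, and for 52.7% of 15767 genes with a mean of at least 100 normalized counts. That ratio rests on 1 library a side. It was largest for Grem1 (2.50) and Pdpn (2.42), and closest to 0 for Fap (-0.07), Cd34 (-0.17) and Fn1 (0.22).

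The gene lists turned too, so the lowest and highest genes given for a list hold for the labels only. Mouse 1 over mouse 8 had the opposite sign to the labelled log2FC for 92 of the 128 pathway and stromal list genes with a count in both libraries and for 57 of 82 marker genes, beside 10778 of 21571 genes in all. The median of the pathway and stromal lists moved from -0.27 to 0.42. Among the growth factor genes, Pdgfc stood at 1.66 and Pdgfd at -1.20, and among the BMP genes Chrd stood at 1.84 and Bmp7 at 1.18. All 9 stromal collagens changed sign, to a median of 0.48, and matricellular and elastic fibre genes moved to a median of 0.56, with Tnc at 1.16 and Mfap5 at -0.17. Epyc (3.38) and Wnt2 (1.09) kept their sign. Neutrophil genes moved from a median of -1.87 to 4.20, Cxcr2 having no count in mouse 8, and smooth muscle genes from 0.41 to -0.59. Each of these ratios compares 1 library with 1 library, with no test.

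To compare the members with each other, counts were divided by exonic length, on the scale of normalized counts per kilobase (mean ± SD over 6 colon libraries). Dcn stood at 4416 ± 1793, Grem1 at 3881 ± 4681, Fn1 at 3531 ± 1052 and Postn at 2523 ± 663. Lum followed at 1605 ± 283, Pdpn at 697 ± 570 and Pdgfra at 672 ± 365. Cd34, at 299 ± 46.8, Thy1, at 277 ± 82.2, and Fap, at 83.2 ± 18.2, were lowest. Of the 9 steps in this order, only those from Lum to Pdpn and from Thy1 to Fap left the ranges of mean ± SD of both neighbours apart.

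Other stromal genes were grouped by the fibroblast subset they are known from. Inflammation-associated fibroblast genes (16 tested, 0 SDE by edgeR, median log2FC -1.20) ran, as labelled, from -2.84 for the matrix metalloproteinase gene Mmp3 to 1.10 for Wnt2. By mouse 1 over mouse 8 their median was 2.66 and Mmp3, with 4778 against 49.2 normalized counts, stood at 6.60. Of the 14 with a mean of at least 100, 11 had mice 1, 7 and 9 highest. Their summed normalized count was 19994, 4946 and 3590 in mice 1, 2 and 4 and 22988, 3113 and 69781 in mice 7, 8 and 9, a 22.4-fold span that was 11.9-fold without Mmp3, which held up to 47.6% of the sum. Subepithelial fibroblast genes (9 tested, 0 SDE, median -0.10, and 0.71 by mouse 1 over mouse 8) ran from -1.83 for Nrg1 to 0.75 for Sox6, and the 8 with a mean of at least 100 spanned from 1.43-fold (Foxf2) to 15.3-fold (Nrg1). Adventitial fibroblast genes (9 tested, 0 SDE, median -0.07, and -0.48 by mouse 1 over mouse 8) ran from -0.68 for Rspo3 to 0.44 for Pi16. Within them the complement gene C3 had 3817 normalized counts in mouse 8 and 57232 in mouse 9 while Gsn, the actin-severing gelsolin, had 65086 and 24550 in the same mice, so that their sum spanned 1.26-fold although the median gene spanned 2.99-fold. Lymphoid stroma genes (4 tested, 0 SDE, median -1.58, and 2.40 by mouse 1 over mouse 8) ran from -2.48 for the chemokine gene Cxcl13 (2.72 by that ratio) to 0.05 for Il7. Over all 130 tested genes of these and the pathway lists the median log2FC was -0.27, and 2 (Epyc and Wnt2) had an unadjusted p under 0.05 in edgeR, 5 in DESeq2 and 1 in limma-voom.

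**Figure D4:**
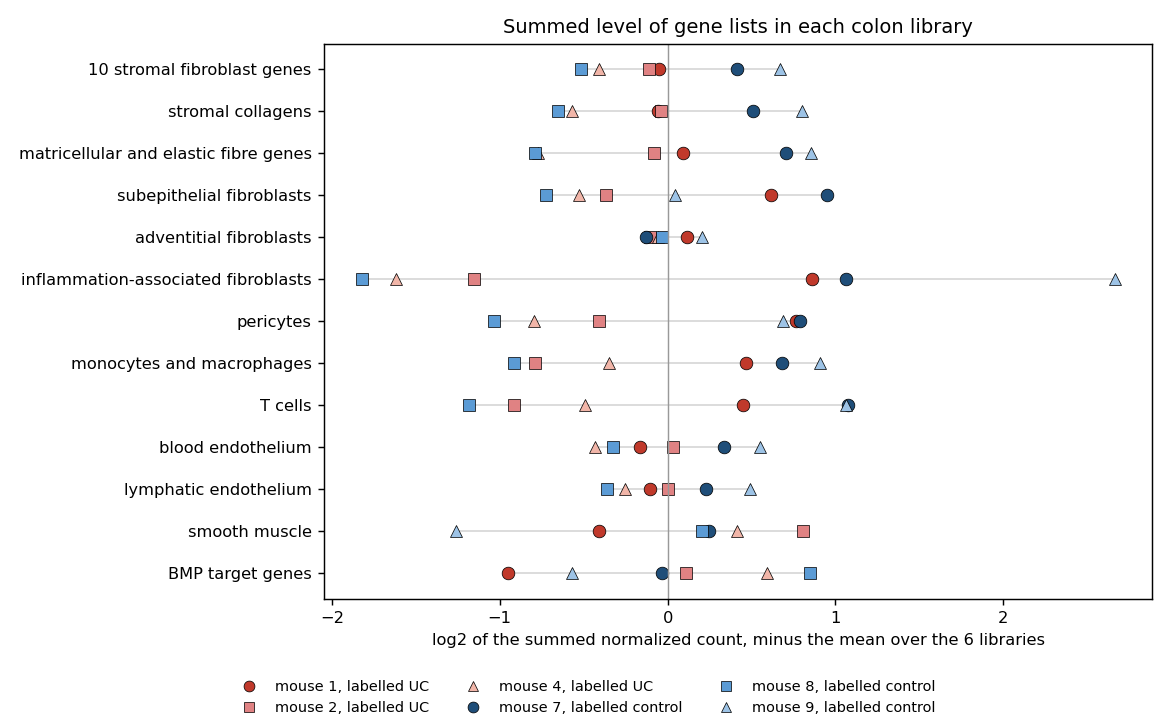
Summed normalized count of 13 gene lists in the 6 colon libraries (x axis, log2, centred on the mean over libraries). Points are libraries, and the 10 stromal fibroblast genes span 2.27-fold, inflammation-associated fibroblast genes 22.4-fold (11.9-fold without Mmp3), the adventitial sum 1.26-fold with C3 and Gsn moving oppositely within it, and smooth muscle genes run in an order of their own with mouse 9 lowest.

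Markers of other cells moved over the same libraries, and their part in the members' levels was not tested. Pericyte markers (6 genes, none at 0) summed to 38590, 17146 and 13065 in mice 1, 2 and 4 and to 39339, 11081 and 36532 in mice 7, 8 and 9, with Kcnj8 at a log2FC of -1.39 and Rgs5 at 0.15. Monocyte and macrophage markers (8 genes, none at 0) summed to 33699, 14069 and 19104 and to 39057, 12900 and 45792, with Ly6c2 at -1.09 and Cx3cr1 at -0.09. Neutrophil markers (6 genes, none at 0) spanned 218-fold, from 181 in mouse 2 to 39523 in mouse 9. Mice 1, 7 and 9 were thus highest for all of these as for Grem1, Pdpn, Pdgfra and Dcn. Mouse 1 stood apart for mesothelial markers, at 3772 normalized counts against 68.1 to 1412 in the other 5, and for adipocyte markers, at 12997 against 3214 to 6181. Mouse 1 was the lowest of the 6 for Cd34 and Postn.

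The remaining marker lists gave no SDE gene either, 0 of 85 tested marker genes in all, with unadjusted p under 0.05 for 1 (Cdh5) in edgeR, 7 in DESeq2 and 1 in limma-voom. The lowest and highest log2FC were -0.94 (Cdh5) and 0.08 (Cldn5) for blood endothelium, -0.50 (Flt4) and -0.06 (Prox1) for lymphatic endothelium, and 0.29 (Tagln) and 0.85 (Actg2) for smooth muscle. They were -1.88 (Cd5) and 0.15 (Cd3g) for T cells, -2.76 (Cxcr2) and -1.49 (S100a8) for neutrophils, and 0.11 (Msln) and 3.06 (Upk3b) for mesothelium. They were -0.71 (Krt20) and 0.25 (Slc26a3) for colon epithelium. Adipocytes ran from 0.35 (Plin4) to 2.19 (Plin1), blood progenitors from -1.73 (Flt3) to 0.62 (Kit), platelets from -0.36 (Itga2b) to 1.50 (Gp1bb), squamous epithelium from -1.74 (Krt13) to 0.65 (Krt14), and skeletal muscle from -0.35 (Acta1) to 0.61 (Tnnt3).

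The next comparison asked in which tissue the members were counted. All 10 were SDE between colon and blood in edgeR, DESeq2 and limma-voom, against 58.5% of 23258 genes tested. Higher in the colon were 9 members, beside 37.7% of all genes, and Thy1 was higher in the blood, beside 20.8%. Grem1, Pdpn, Lum, Postn and Pdgfra failed the count filter in the blood alone, so the colon libraries carried them into this test. Their calls therefore come with their selection, and their p-values support nothing. On the main scaling (CPM, scaled by TMM) the median gene had a log2FC of 0.46, and the members a median of 9.67, or 8.12 with Grem1 and Pdpn, which had no blood count, at their lower bounds given below. With scaling by the total count alone all genes shifted by a median of 2.10 on the log2 scale. 7SL RNA took 35.9% to 65.4% of blood counts and 4.90% to 6.50% of colon counts, and its part in that shift was not tested.

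Grem1, Pdpn, Lum, Postn and Pdgfra were at or near 0 in the blood. Grem1 and Pdpn had 0 counts in all 6 blood libraries. With 3 counts per library as the floor, the colon was 1623-fold higher for Grem1 and 128-fold for Pdpn (7511-fold and 578-fold by the total count). These are not strict lower bounds, since counts derived from transcript coverage are not numbers of reads. Lum had 8 counts in the blood of mouse 8 and 0 in the other 5. Postn had 35 counts in mouse 7, 9 each in mice 4 and 9 and 0 in mice 1, 2 and 8, and Pdgfra had 6 counts in mice 1, 4 and 7, 3 in mouse 9 and 0 in mice 2 and 8. In the colon, the lowest library of each of these 5 genes held between 235 counts (Pdpn) and 16068 (Postn). The ratio of mean TMM-scaled CPM in the colon to that in the blood was 672 for Pdgfra, 948 for Postn, 751 for Dcn and 798 for Lum. The fitted log2FC of these genes (9.23 for Pdgfra, 10.10 for Postn, 10.80 for Dcn and 11.60 for Lum) rests on few blood counts, and 1 library moved it to 12.90 for Postn (without mouse 4), 12.86 for Dcn (without mouse 7) and 14.52 for Lum (without mouse 8).

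**Figure D5:**
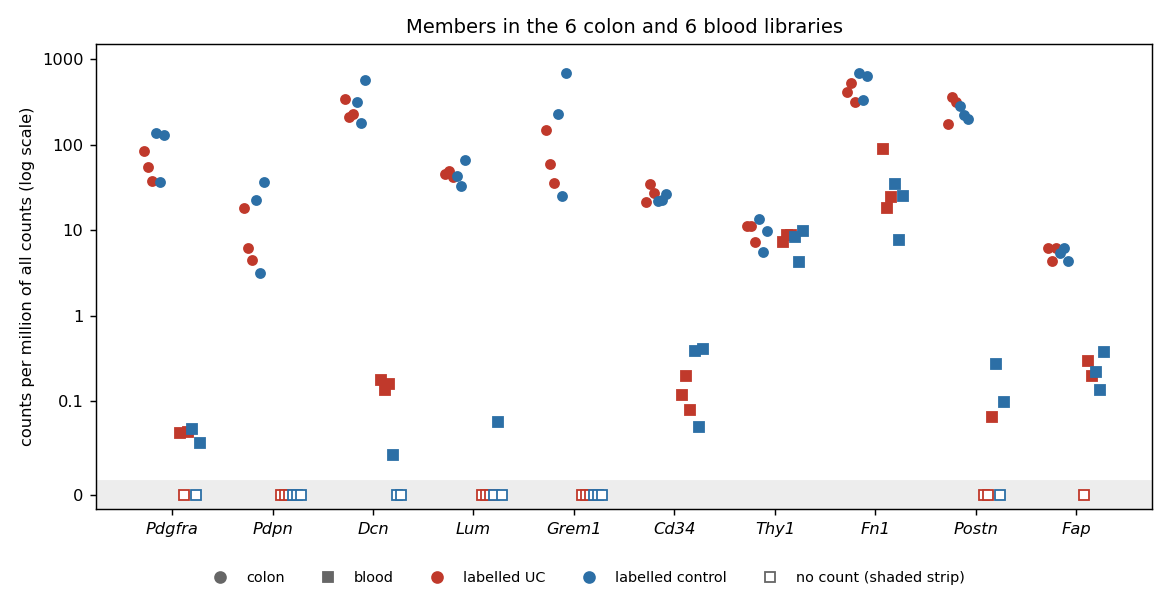
CPM of all counts (y axis, log scale, with 0 in the shaded strip) of the 10 genes in 6 colon (circles) and 6 blood (squares) libraries, coloured by disease label. Colon and blood do not overlap for 9 genes on this scale, while Thy1 overlaps, and Grem1 and Pdpn have no count in any blood library.

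Cd34, Fap, Fn1 and Thy1 were counted in both tissues. Cd34 had 139 counts over the 6 blood libraries and a log2FC of 4.99 (SE 0.376). Fap had 133 counts over the blood libraries, with 0 in mouse 1, and a log2FC of 2.75 (SE 0.609, adjusted p = 0.00185 by edgeR). Fn1, which monocytes and platelets can carry, had 25219 counts over the blood libraries and a log2FC of 1.77 (SE 0.458, adjusted p = 0.00494 by edgeR). Its tissues overlapped in TMM-scaled CPM, 148 to 344 in the colon and 22.4 to 241 in the blood, and without mouse 1 the log2FC was 2.41. Thy1 stood at 2.88 to 6.74 TMM-scaled CPM in the colon and 12.1 to 19.8 in the blood, a log2FC of -1.79 (SE 0.216, adjusted p = 2.46e-05 by edgeR). Scaled by the total count alone the direction of Thy1 reversed to 0.32 (adjusted p = 0.305), so its direction between the tissues depends on the scaling.

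The pathway genes showed the same tissue split. Of 130 tested genes of the pathway and stromal lists, 100 were SDE and higher in the colon and 14 higher in the blood. The median log2FC of the 130 was 6.32, or 4.96 with the 21 genes without a blood count at the floor of 3 counts per library. In the blood alone, 62 genes of these lists passed the count filter, and the calls of those that failed it come with their selection. All 9 stromal collagens, all 6 other BMP antagonists and 7 of 8 tested proteoglycans were higher in the colon. Among integrins and other matrix receptors 4 of 10 were higher in the colon (Itga9 most, at 5.81) and 5 in the blood (Itgb3, the platelet fibrinogen receptor chain, most, at -5.91), and of podoplanin partners the platelet receptor gene Clec1b was lowest, at -11.40.

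In the blood itself, 5 members passed the count filter (Dcn, Cd34, Thy1, Fn1 and Fap), and 0 of the 5 were SDE between labelled UC and labelled control by edgeR, DESeq2 or limma-voom, against 0 of 16759 genes (0%) in edgeR. An unadjusted p under 0.05 was found for Dcn and Thy1 in edgeR and limma-voom and for Dcn, Thy1 and Fn1 in DESeq2, beside 241 genes (1.44%) in edgeR. The labelled groups did not overlap for Dcn and Thy1, as for 6.50% of genes. Dcn passed the filter through the libraries labelled UC alone, so that its difference comes with its selection and its p-values support nothing.

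Dcn had 25, 11 and 22 counts in the blood of mice 1, 2 and 4, labelled UC, and 3, 0 and 0 in mice 7, 8 and 9, labelled control. Each library labelled UC was above each labelled control, at counts of 25 or fewer. No fold change is read from these counts. The collagen genes did not have this order: Col3a1 had 55, 121 and 346 counts in mice 1, 2 and 4 and 215, 61 and 54 in mice 7, 8 and 9, and Col1a1 had 3, 38 and 96 and then 70, 3 and 6. For the difference of the UC effect between colon and blood, 1 of all 23258 genes (0.00430%) passed and 0 of the 5 members tested in both tissues by edgeR. DESeq2 passed Dcn (adjusted p = 0.0125) on these same blood counts, so that call supports nothing either. The log2FC differences of the others were -1.89 for Fn1, -0.46 for Thy1, 0.37 for Fap and 0.86 for Cd34.

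Thy1 in the blood stood at 1081, 1055 and 975 normalized counts in mice 1, 2 and 4, against 814, 679 and 742 in mice 7, 8 and 9. All 3 libraries labelled UC were above the 3 labelled control, by a log2FC of 0.47 (SE 0.196, unadjusted p = 0.0420, adjusted p = 0.9998 by edgeR). With scaling by the total count alone it fell to 0.14, while all genes of this comparison shifted by a median of -0.31. T cell markers (9 genes, 0 SDE) summed to 8997, 13193 and 13356 in mice 1, 2 and 4 and to 10950, 11190 and 10979 in mice 7, 8 and 9. Mouse 1 was highest for Thy1 and lowest for T cell markers, while mice 2 and 4 were next for Thy1 and highest for T cell markers. The T cell share of the Thy1 level in the blood was not tested.

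Fn1 in the blood stood at 13178, 2214 and 2751 normalized counts in mice 1, 2 and 4, against 3401, 1255 and 1935 in mice 7, 8 and 9. Mouse 1 stood far above the other 5. The log2FC of 1.45 (SE 0.701) became 0.18 without mouse 1. Monocyte and macrophage markers (8 genes, 0 SDE) summed to 92216, 81561 and 115460 in mice 1, 2 and 4 and to 109273, 90830 and 94946 in mice 7, 8 and 9. Without their largest gene, Lyz2, mouse 1 had 29524 against 20533 to 28358 in the others. Platelet markers (5 genes, 0 SDE) summed to 184614 in mouse 1 and 144095 to 181737 in the others. Without Ppbp these sums were 117541 against 78003 to 99083, and without Itga2b too, 47503 against 38876 to 53683. Single genes that platelets and monocytes are known to carry, named after their values were seen, set mouse 1 further apart. Chosen in that way, they do not stand for platelets or monocytes, whose listed markers did not set mouse 1 as far apart. Thbs1 (thrombospondin 1) stood at 75651 normalized counts in mouse 1 against 13220 to 35998 in the others, Tgfbi at 17347 against 2277 to 7731, and Itgb3 at 72963 against 20190 to 46431. Thbs1 and Tgfbi made up nearly all of the summed matricellular and elastic fibre genes, 95786 in mouse 1 against 17497 to 45834, of which 2788 and 299 to 2556 were left without them. Blood endothelial markers summed to 58800 in mouse 1 against 16061 to 26780, through Vwf (von Willebrand factor), at 48643 against 8836 to 17965, and to 10156 against 7226 to 9314 without it. The part of these cells in the Fn1 level was not tested. Cd34, with 17, 16 and 11 counts in mice 1, 2 and 4 and 50, 7 and 38 in mice 7, 8 and 9, had a log2FC of -0.63 (SE 0.730). Fap had 0, 24 and 27 counts and then 28, 19 and 35, a log2FC of -0.32 (SE 1.09) that became 0.27 without mouse 1.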

How the data were processed

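Colon and whole-blood total RNA was depleted of ribosomal RNA, and blood also of globin RNA. Per the labels and the study's methods, the authors mapped reads to GRCm38 with STAR and quantified Ensembl 92 genes with StringTie 1.3.4c. The deposited counts are whole numbers derived from transcript coverage, and the deposited normalized tables, a signal scale per tissue, are the count divided by 1 factor per library, here recomputed as 0.791 to 1.21 for colon and 0.664 to 1.31 for blood libraries. Normalized values of different tissues were not set against each other.

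Groups followed the disease state and tissue characteristics, and mouse numbers the titles. Counts were tested with edgeR 4.0.16 in R 4.3.3 (TMM, filterByExpr, glmQLFit and glmQLFTest, Benjamini-Hochberg adjustment over all genes tested), each tissue alone, and all 12 libraries together for colon against blood and for the difference of the UC effect. The SE was obtained as log2FC / sqrt(F). Alternatives were RLE, library size only, no filter, a mean of at least 10 counts, DESeq2 1.42.0, limma-voom (limma 3.58.1), genes of the normalized tables only, adjusted p alone, each mouse left out, and the mouse as a replicate block. Colon and blood came from the same mice, so the numbers pair the libraries: deviations from the labelled group means correlated between same-numbered libraries with r from 0.00731 to 0.233 over 15802 genes. Likeness to a member was the root mean square difference of log2(normalized count + 1), centred per gene, over the 6 colon libraries among genes with a mean of at least 100.

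Named genes were the 10 members, the 2 genes most like each, the genes of each list with the highest and lowest colon log2FC, and S100a8 and 3 collagen genes as checks. The results of 2 lists are not reported here. Genes named for their share in a list's sum or their span, the mouse 1 to mouse 8 ratios of lists, sums without their largest gene and medians with genes at the floor were added after seeing the data. Members and lists were chosen with earlier results of these data known. Ccl19 and Ccl21a, each with more than 1 identifier, were not used, and 235 of 237 listed genes were found by symbol. The steps were run on simulated counts with less spread than these libraries and no difference between tissues, so that run says little about them at this spread. Within a tissue each library is 1 mouse, so p-values measure the spread between 3 mice a group. The main fits of all 12 libraries treated the colon and blood of a mouse as independent, and only the replicate block paired them. A floor of 3 counts is not a strict limit, since the counts are derived from coverage, and it leaves the spread between mice aside.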

Additional observations from a re-analysis of the deposited data

How the results depend on the processing

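No member was SDE between labelled UC and labelled control in either tissue under any alternative run. The 1 SDE gene of the colon became 6 with DESeq2 and 0 with limma-voom, and 0 with each mouse left out in turn. The 0 of the blood became 1 with library size only, 6 with DESeq2 and 0 to 3 with a mouse left out. For the difference of the UC effect, 1 gene became 20 with DESeq2, 0 with the mouse as a replicate block, and 1 to 2 with a mouse left out. Dcn was among the 20, a call that rests on the few blood counts through which it passed the filter and supports nothing. With the replicate block 12889 genes were SDE between colon and blood, against 13604 without it, and no member's call changed. Library size only gave 19644, of which 17887 were higher in the colon, against 8759 of 13604 by TMM, and reversed Thy1 to 0.32. With mice 2, 4, 7 and 9 set aside the log2 ratio was reversed for Pdgfra (1.12), Pdpn (2.42), Dcn (0.85), Lum (0.40), Grem1 (2.50), Cd34 (-0.17), Fn1 (0.22), Postn (-0.44) and Fap (-0.07), and 0.94 for Thy1. With a mouse left out, the colon log2FC crossed 0 for Lum (-0.20 to 0.16), Thy1 (-0.22 to 0.39) and Fap (-0.16 to 0.23), as did that of Fap in the blood (-1.08 to 0.27) and in the difference between tissues (-0.35 to 1.27). Few counts over the 6 blood libraries (21 for Pdgfra, 8 for Lum, 53 for Postn, 61 for Dcn) limit what can be said of these genes there.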
